A study of Homo sapiens with 13 samples.

Results

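Peaks of LEF1 and TCF7L2 were described at 6 genes of the BCL2 family, which controls the mitochondrial pathway of apoptosis. The genes were BCL2L11, BMF and BBC3, which promote apoptosis, and BCL2, BCL2L1 and MCL1, which oppose it. Every peak that overlapped the span of one of these genes, or the 25 kb on either side of it, was taken. The 6 windows cover 641 kb, which is 0.0207% of the length over which the lists hold peaks. They held 83 to 170 peaks in each LEF1 list and 55 to 142 in each TCF7L2 list, out of 128863 to 395786 peaks per list in all. The 20000 top peaks of each list, ordered by the peak's −log10 p-value, merged into 36912 LEF1 regions and 79360 TCF7L2 regions over the 6 lists of an antibody. Of these, 32 LEF1 regions and 46 TCF7L2 regions lay in the windows.

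The data were CUT&RUN peak lists from Nalm6 cells. Nalm6 is a long-established human line of B-cell acute lymphoblastic leukaemia. CUT&RUN releases and sequences the DNA around a protein by means of an antibody and a nuclease. Both antibodies, against LEF1 and against TCF7L2, were used on control cells and on cells treated for 24 h with 5 µM prednisolone, a glucocorticoid drug. Each of the 4 groups had 3 replicates from independent experiments, and the controls are given no treatment in one label and a vehicle in the protocol. All groups are the same single cell line with no other agent or allele named. Peak lists hold no expression values, so neither the cell line's markers nor the mRNA of the 6 genes could be checked.

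In lymphoid cells, glucocorticoids act through the glucocorticoid receptor and can kill the cell by apoptosis. The balance lies between BH3-only proteins, such as BIM (encoded by BCL2L11), BMF and PUMA (encoded by BBC3), and the guardians BCL2, BCL-XL (encoded by BCL2L1) and MCL1. Guardians hold the pore-forming members of the family in check, and BH3-only proteins bind guardians and release that hold. LEF1 and TCF7L2 belong to the TCF/LEF family, DNA-binding factors that recruit beta-catenin in canonical Wnt signalling. The series' title sets that pathway against glucocorticoid signalling, and the comparisons here ask whether peaks of the 2 factors at these genes differed after prednisolone.

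Promoters are shown for 3 of the genes with a top peak over or beside the gene start, as the reference letters around that start. BMF also had such a peak, and its promoters, which held no match, are not shown. The sequences are RefSeq promoters on GRCh38.p14, each 250 bases before the transcription start and 50 after it, written along transcription. The peaks are on hg19, a different build, so that these coordinates and those of the peaks are not interchangeable. Of the 6 genes, 5 were in the table, with 7 promoters, and MCL1 was not. In all, 3 words were searched on both strands: the TCF/LEF words CTTTGA and CTTTGT and the consensus of the glucocorticoid response element. The first 2 cannot match at the same place. Capitals mark the match found, which is CTTTGT read on the other strand (ACAAAG) at base 6 of the BCL2L1 promoter, 245 bases before the start. No other promoter of the 5 genes held any of the 3 words. Among all 35116 promoters, 12.9% held CTTTGA, 16.1% held CTTTGT and 0.390% held the glucocorticoid response element.
BCL2L11 promoter (chr2:111120664-111120963, plus strand): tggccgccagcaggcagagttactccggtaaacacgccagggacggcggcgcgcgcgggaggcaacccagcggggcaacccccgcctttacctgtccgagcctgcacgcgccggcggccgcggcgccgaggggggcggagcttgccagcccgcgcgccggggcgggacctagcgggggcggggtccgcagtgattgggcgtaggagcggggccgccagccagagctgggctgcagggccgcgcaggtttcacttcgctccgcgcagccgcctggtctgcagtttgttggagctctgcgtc
BCL2 promoter (chr18:63319720-63320019, minus strand): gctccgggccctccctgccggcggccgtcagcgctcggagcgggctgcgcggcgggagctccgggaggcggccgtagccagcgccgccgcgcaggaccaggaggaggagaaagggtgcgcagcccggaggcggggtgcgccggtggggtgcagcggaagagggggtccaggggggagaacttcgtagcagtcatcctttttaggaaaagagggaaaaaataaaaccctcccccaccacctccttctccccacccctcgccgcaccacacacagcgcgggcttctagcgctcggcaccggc
BCL2L1 promoter (chr20:31723914-31724213, minus strand): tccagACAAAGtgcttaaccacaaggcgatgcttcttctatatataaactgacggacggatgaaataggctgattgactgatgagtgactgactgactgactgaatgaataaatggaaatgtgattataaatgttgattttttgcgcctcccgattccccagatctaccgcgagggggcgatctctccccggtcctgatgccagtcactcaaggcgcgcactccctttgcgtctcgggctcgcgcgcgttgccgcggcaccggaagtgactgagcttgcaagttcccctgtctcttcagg
The BCL2L11 and BCL2 promoters were rich in G and C, at 74.7% and 70.7%, against a median of 58.7% over all promoters. BCL2L1 has 2 promoters in the table: the one printed was chosen because it holds the match and was at 52.0%, and the other, with no match, was at 61.3%. Neither was matched to the peaks, which are on the other build.

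The lists of the antibodies differed in strength, which limits what can be seen for TCF7L2. At the 20000th peak the −log10 p-value was 8.13 to 9.27 in the LEF1 lists and 3.54 to 3.93 in the TCF7L2 lists. At or above a −log10 q of 5, the lists held 21764 to 27309 peaks for LEF1 and 1271 to 3524 for TCF7L2. At the 6 loci just 1 TCF7L2 peak reached that q-value, in BCL2L1 of prednisolone replicate 2. Read totals were not used here, so depth is known only through the lists, and an IgG sample was not analysed here. A list's shortest peak split each antibody's libraries the same way, into control 1 with prednisolone 2 and 3, and control 2 and 3 with prednisolone 1. For LEF1 that length was 164 to 165 bp in the first set and 187 to 197 bp in the second, and for TCF7L2 193 to 201 bp and 158 to 167 bp. The labels name no batch. The set was used as a covariate in alternative fits, and the order within sets is mentioned below for the gained LEF1 regions only. TCF7L2 prednisolone replicate 3 had the fewest peaks at the loci, 55, from a list of 144091.

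LEF1 peaks were densest at BMF and BCL2. Counting top peaks only, BMF held 5, 7 and 7 in the control lists and 8, 7 and 7 after prednisolone, and BCL2 held 8, 11 and 13 and then 11, 8 and 9. BCL2L1 held 3 in each control list and 4, 3 and 1 after prednisolone. BBC3 had 1 top LEF1 peak, in control replicate 2, and MCL1 had 1 in control replicate 2 and 1 in prednisolone replicate 2. BCL2L11 was the gene whose groups did not overlap: no top LEF1 peak in any control list and 2 in every prednisolone list. These peaks form the 2 gained regions described below, so they are not a separate result. The share of other windows without overlap was not counted. Per megabase, the full LEF1 lists were 3.68 ± 0.749 times as dense at BMF as over the whole list (SD, n = 6), 3.16 ± 0.416 times at BCL2 and 2.13 ± 0.516 times at BCL2L1. The same ratio was 0.947 ± 0.279 at BBC3. Among the top peaks the ratio was 14.9 at BMF, 6.29 at BCL2, 4.02 at BCL2L1 and 0.416 at BBC3, so that these 4 genes kept their order.

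**Figure D1:**
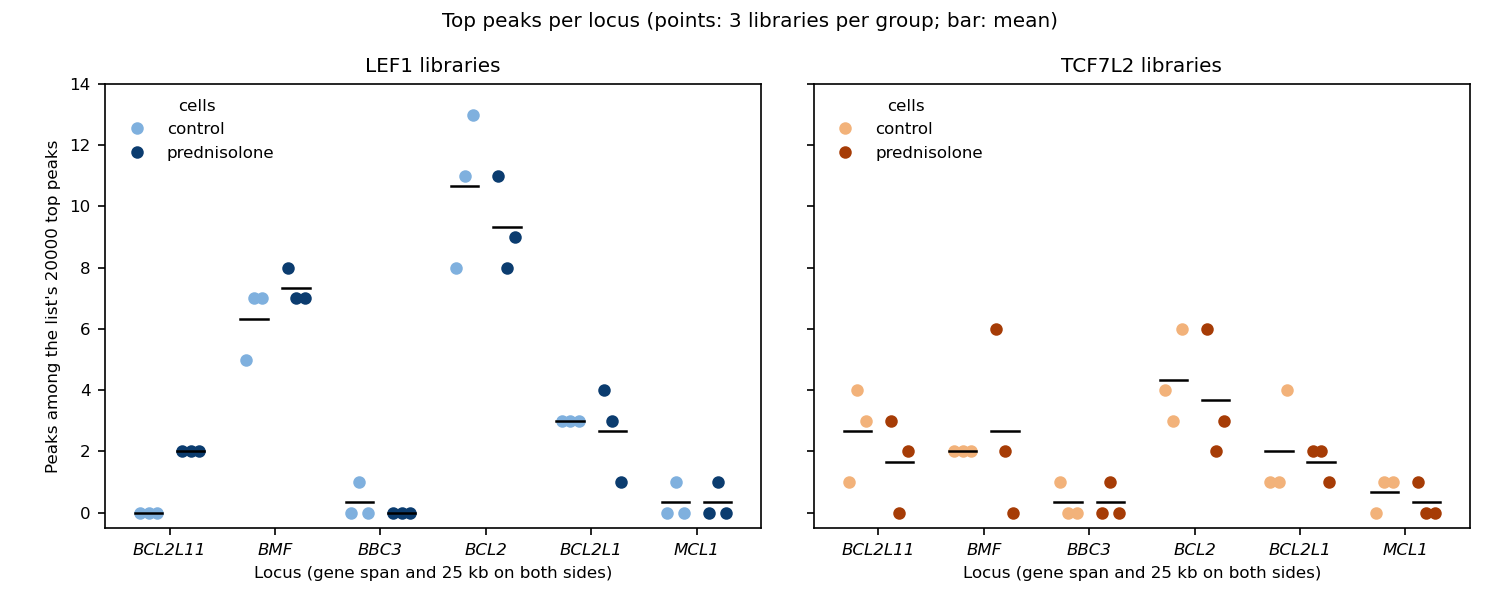
Number of peaks among the 20000 top peaks of each list that fall in each gene's window, for LEF1 libraries (left) and TCF7L2 libraries (right); each point is 1 library, lighter points are control and darker ones prednisolone, and the bar is the mean of 3. For LEF1, the BCL2L11 points are at 0 in the controls and at 2 after prednisolone, while BMF and BCL2 lie between 5 and 13 in both groups.

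For TCF7L2, top peaks were fewer and less regular. BMF held 2, 2 and 2 in the controls and 6, 2 and 0 after prednisolone. BCL2 held 4, 3 and 6 and then 6, 2 and 3, and BCL2L11 held 1, 4 and 3 and then 3, 0 and 2. BCL2L1 held 1, 1 and 4 and then 2, 2 and 1, and BBC3 and MCL1 held 0 or 1 in every list. Groups overlapped at each of the 6 genes.

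Regions near the windows' edges show what the 25 kb limit decides. The LEF1 region nearest an edge inside was chr18:60765156-60768462, which crosses the far edge of the BCL2 window and had a top peak in all 6 lists. The nearest LEF1 region outside was chr18:60763362-60764948, 1.05 kb beyond that edge, with a top peak in 1 control and 2 prednisolone lists. Beside BMF, a LEF1 region 6.46 kb outside the window (chr15:40345793-40348537) had a top peak in no control and in all 3 prednisolone lists. It is not among the 32.

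**Figure D2:**
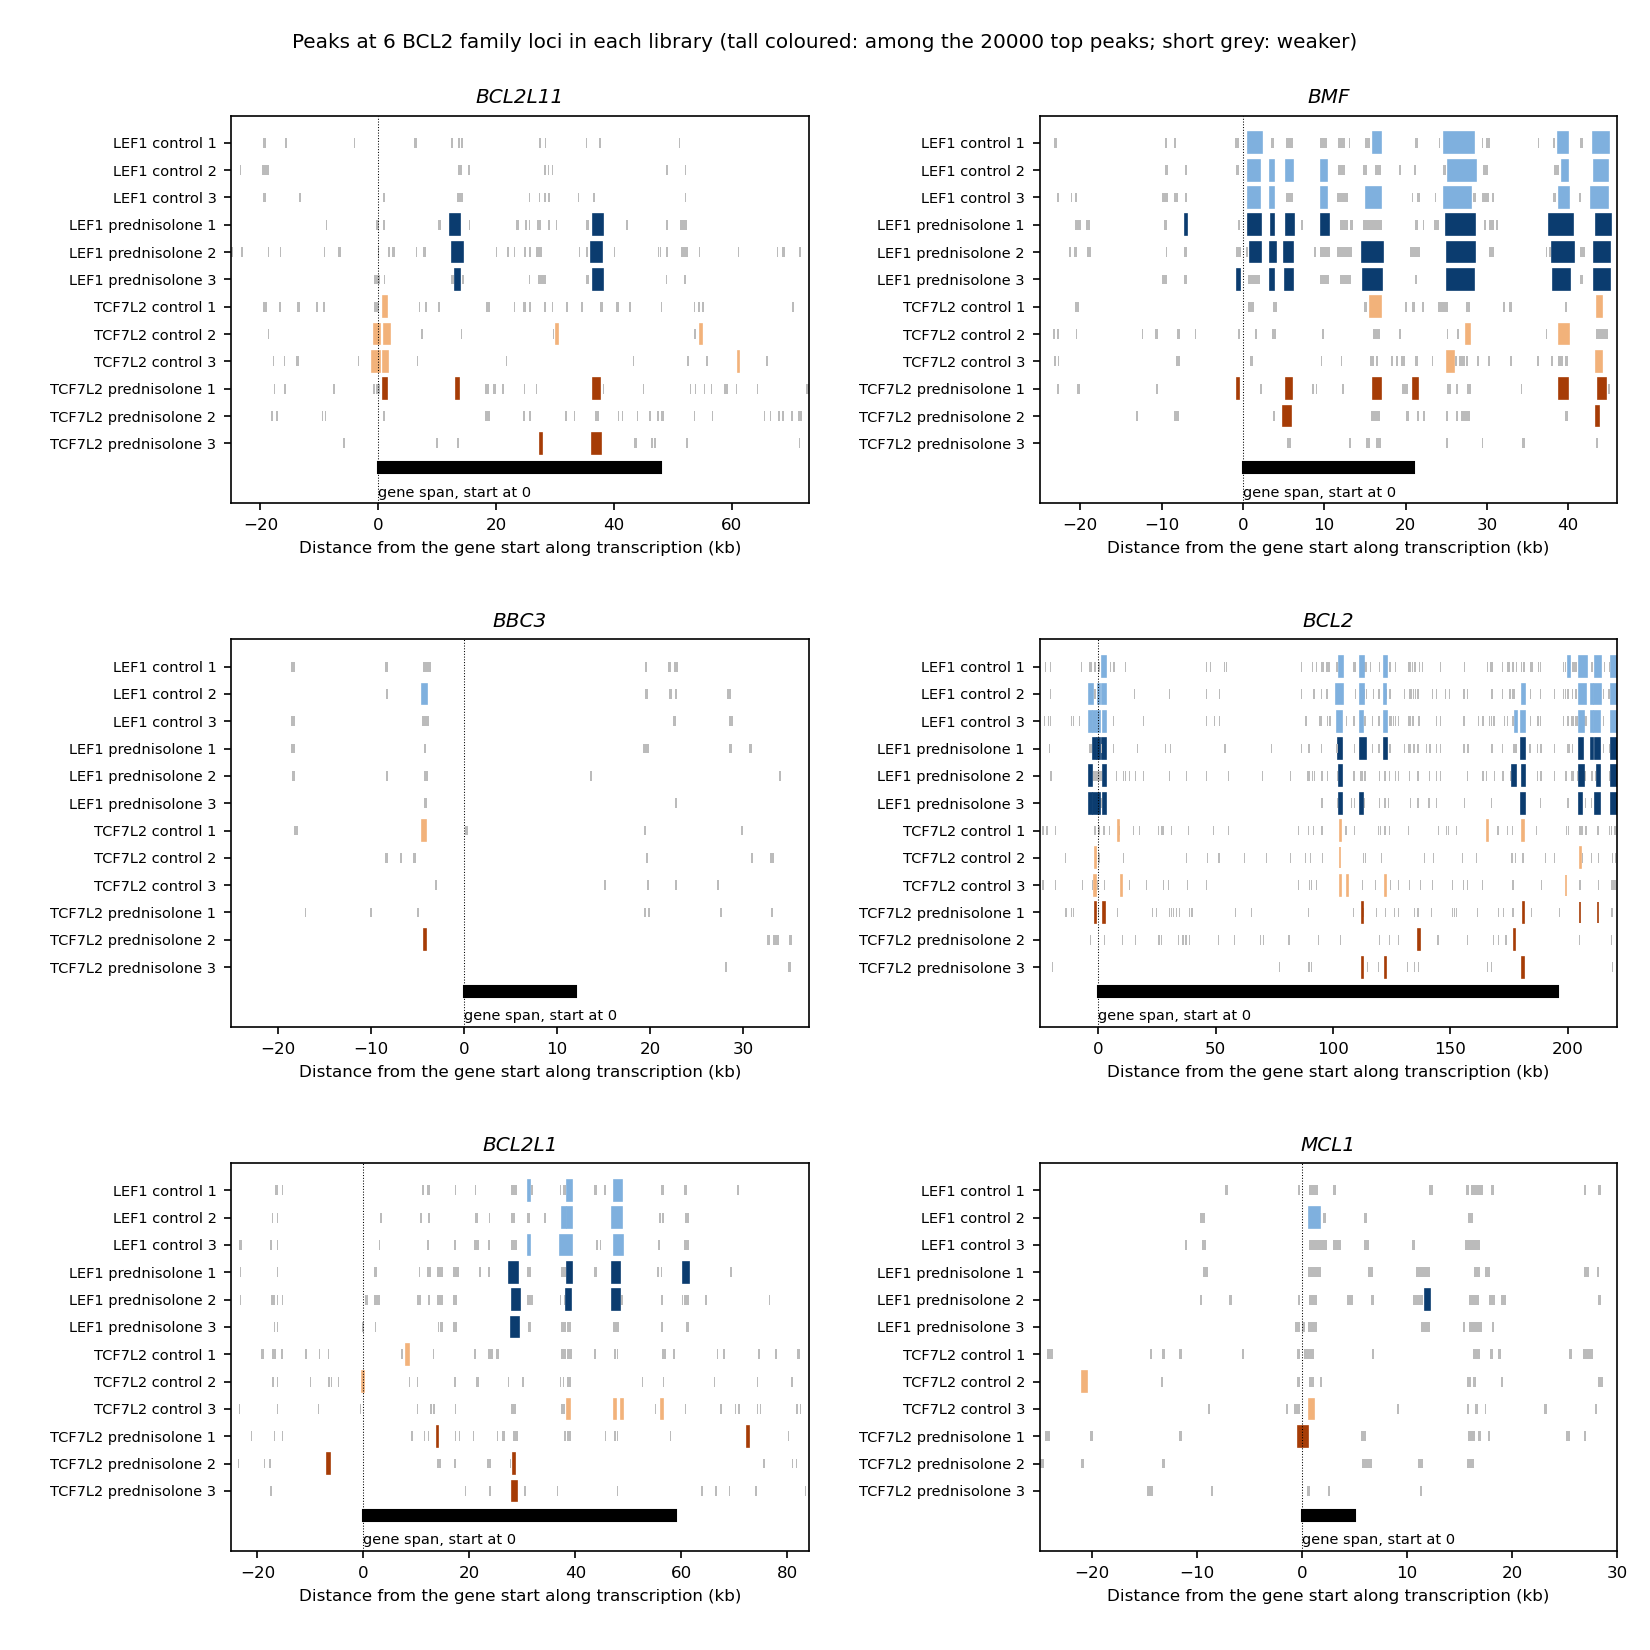
Peaks along each of the 6 gene windows, drawn to scale, with 1 row per library; the horizontal axis is the distance from the gene start along transcription in kb, tall coloured boxes are peaks among the list's 20000 top peaks (light control, dark prednisolone, blue LEF1, orange TCF7L2), short grey boxes are weaker peaks, and the black bar is the gene span. Tall LEF1 boxes stand in BCL2L11 only in the 3 prednisolone rows, whereas those of BMF and BCL2 run through control and prednisolone rows.

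After prednisolone, 2 LEF1 regions at BCL2L11 and 1 at BCL2L1 were gained, and none was lost. Gained means a top peak in each of the 3 prednisolone lists and in none of the controls, and lost means the reverse. Of the 32 LEF1 regions 3 were gained, where 2.82% of all LEF1 regions were, and 0 were lost, where 1.92% were. Both LEF1 regions of BCL2L11 and 1 of 5 at BCL2L1 made up the 3. The exact two-sided permutation p of such a pattern is 0.1, the smallest that 3 libraries against 3 allow, so presence alone cannot take any region past 0.05. Under the looser rule of top peaks in 1 group only, in any number of its lists, 7 of the 32 regions were in prednisolone lists alone and 4 in control lists alone, where 8253 and 8496 of all 36912 LEF1 regions were.

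The stronger of the BCL2L11 regions was chr2:111914119-111916151, 36.1 to 38.2 kb downstream of the gene start and inside the gene. BCL2L11 encodes BIM, a BH3-only protein that binds all the main guardians. LEF1 peaks there ranked 2554, 3583 and 3028 in the prednisolone lists, with fold ratios over MACS2's modelled background of 12.3, 10.4 and 11.9. In the controls they ranked 242015 in replicate 1 and 158666 in replicate 3, with fold ratios of 2.08 and 2.50, and replicate 2 had no peak. The peaks were 1629, 1770 and 1692 bp wide after prednisolone, against 355 and 289 bp in the controls. All 3 prednisolone summits fell within 62 bp of each other. Every prednisolone library thus ranked above every control library, as the rule for a gained region requires. The same order within each set of libraries with alike shortest peaks follows from this and is no further check.

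Because 1 control list had no peak there, this region was tested in the fit that keeps every region, where libraries without a peak share the lowest rank. Ranks were turned into normal scores within each library and compared with limma, with p-values adjusted over all 36912 regions by the Benjamini-Hochberg method. The score was higher by 3.35 ± 0.342 (SE, n = 3 and 3), adjusted p = 0.00286 by limma, and the unadjusted p placed 11th among 36912. The region entered the tested set only through its prednisolone peaks, so this test is not independent of how the region was formed. The same holds, through its own group, for every other region described whose top peaks were in 1 group only, gained and lost regions among them. The score difference stayed between 3.09 and 3.53 when each library was left out, with limma adjusted p from 0.0147 to 0.0280. With the set of libraries as a covariate it was 3.43 (limma adjusted p = 0.00993).

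TCF7L2 peaks also had better ranks at that BCL2L11 region after prednisolone, short of the test's threshold. They ranked 6434, 76148 and 4031 after prednisolone, against 101285 in control replicate 1 and no peak in the other control lists. Fold ratios were 4.22, 2.51 and 3.85 after prednisolone and 2.35 in that control, so the groups did not overlap. The difference did not pass the test: the TCF7L2 score was higher by 1.41, adjusted p = 0.355 in limma over 79360 regions. This TCF7L2 region was formed from prednisolone top peaks alone, so the test is not independent of that choice. In that fit limma gave every TCF7L2 region the same SE, 0.534, from the spread pooled over all regions, so it is not the spread of any region's own replicates. The median summits of the top peaks of the 2 antibodies lay 76.5 bp apart.

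The other BCL2L11 region, chr2:111890173-111892358, lies 12.2 to 14.4 kb into the gene. LEF1 peaks ranked 19323, 9358 and 12924 after prednisolone and 51146, 47113 and 242318 in the controls. Fold ratios were 4.50, 6.51 and 6.15 against 4.01, 3.82 and 1.83, so the groups did not overlap, although control replicates 1 and 2 came close to prednisolone replicate 1. The order of the ranks, and with it the order within both sets of libraries, follows from the rule for a gained region. The score difference was 1.77 ± 0.476 in limma among the 33996 regions with a peak in all 6 lists, adjusted p = 0.0961, which misses 0.05. Without control replicate 3, the lowest library, the difference was 1.22 (limma adjusted p = 0.207). TCF7L2 had a top peak there in prednisolone replicate 1 alone, at rank 11355.

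Near BCL2L11's start, the top peaks were of TCF7L2 and none was of LEF1. At chr2:111878711-111879953, 0.711 to 1.95 kb past the start of the gene span, which is rounded to 1 kb, TCF7L2 ranked 2988, 4649 and 4591 in the controls. After prednisolone it ranked 5683 in replicate 1 and 81339 in replicate 2, and replicate 3 had no peak. Control ranks were all better, yet the score difference of −1.16 gave a limma adjusted p of 0.582. A further TCF7L2 region crossed this rounded start (chr2:111876949-111878299, ranks 83729, 16912 and 9836 in the controls, and 39269, none and none after prednisolone). It reached 0.299 kb past it, less than the rounding, so whether it covers the transcription start is not known. LEF1 peaks at this further region ranked 182916, 267211 and 122375 in the prednisolone lists, far outside the top peaks, and the controls had none. In the full lists, LEF1 peaks in the BCL2L11 window were 1.33 ± 0.00338 times as dense as the list in controls and 2.53 ± 0.165 times after prednisolone (SD, n = 3 each), with no overlap. Here too the share of other windows without overlap was not counted.

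**Figure D3:**
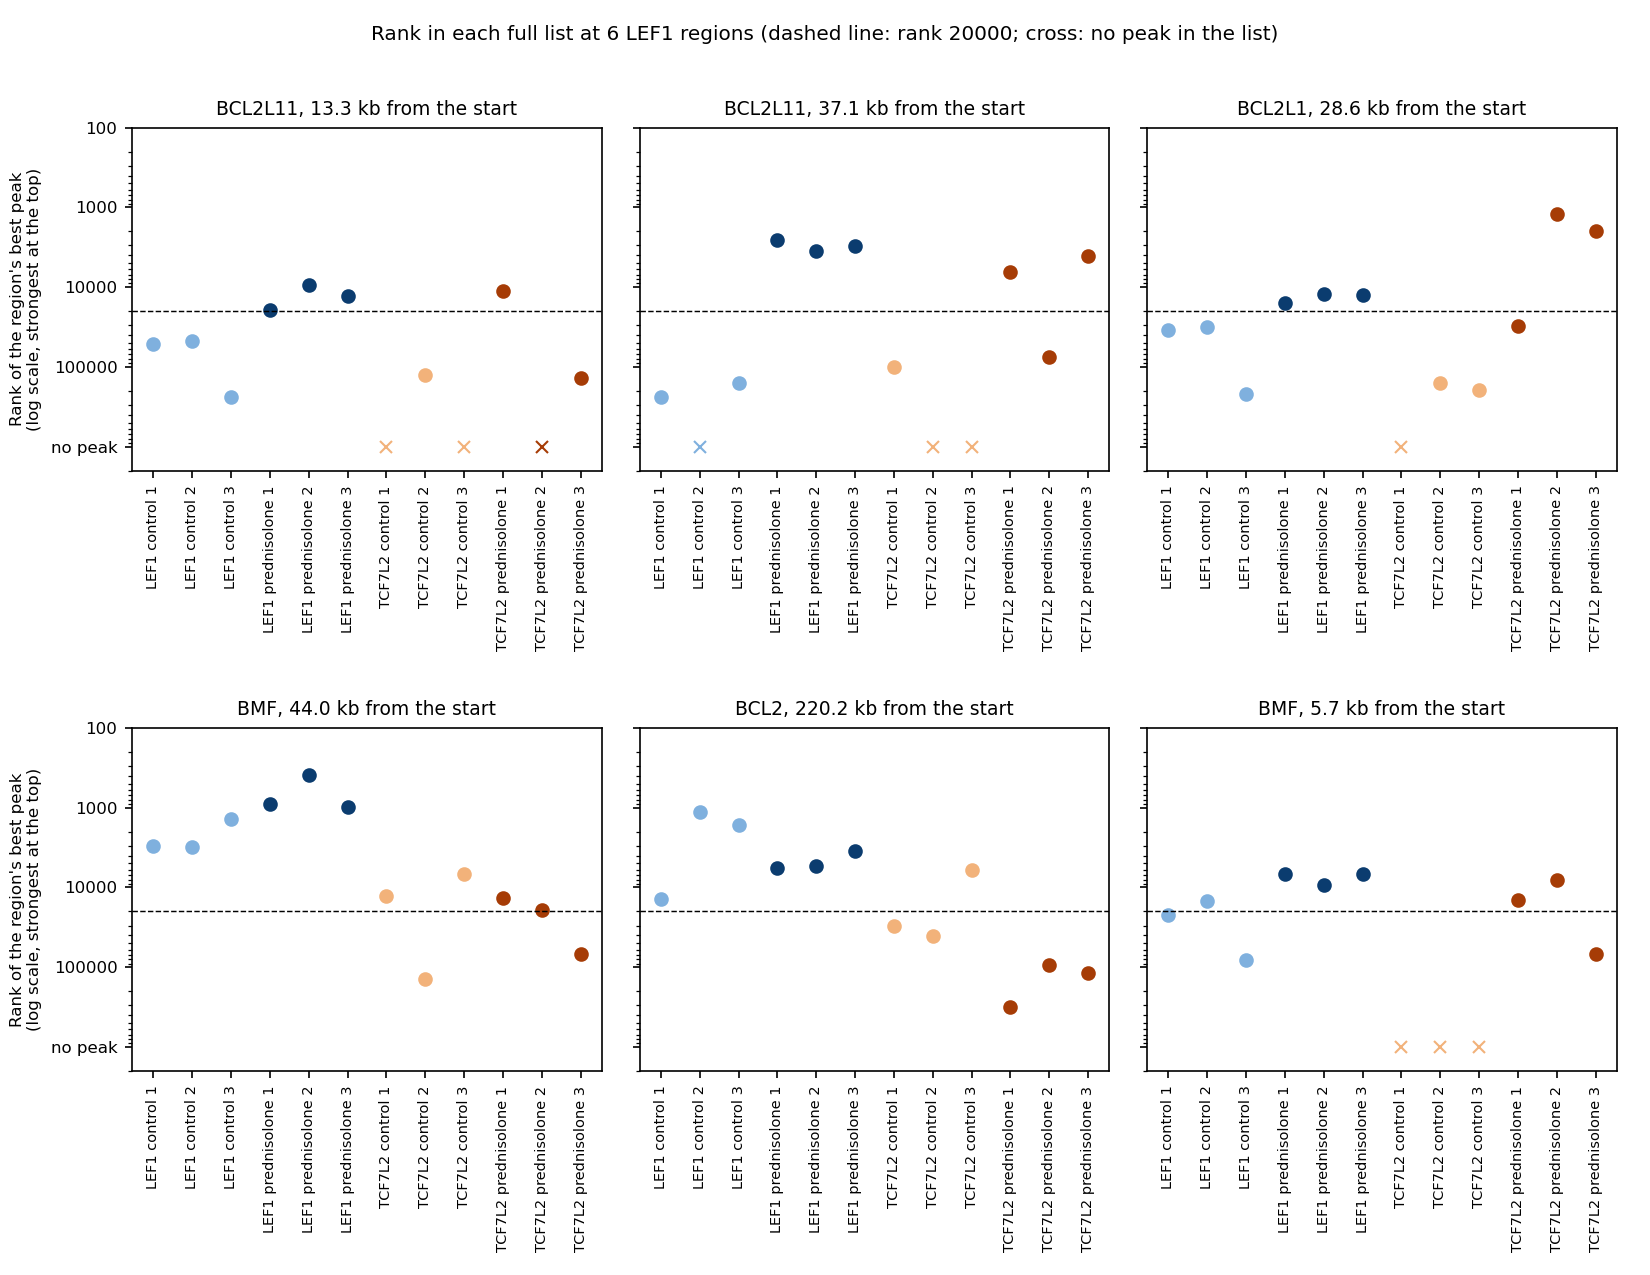
Rank of the best peak in each of the 12 full lists at 6 LEF1 regions, titled by gene and distance from the gene start; the vertical axis is a log scale with the strongest rank at the top, the dashed line is rank 20000 and crosses mark lists with no peak. In the 3 upper panels the dark blue LEF1 prednisolone points lie above the dashed line and the light blue controls below it, while in the 2 lower panels on the left all LEF1 points lie above it.

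The window of BMF, another BH3-only gene, held the 3 LEF1 regions with the best median rank over the 6 LEF1 lists among all 32. All 3 lie beyond the gene's end, on the side where SRP14 is the next protein-coding gene on GRCh38.p14. Which gene they serve was not tested. The first was chr15:40355790-40358198, beyond the gene's end and 42.8 to 45.2 kb from its start. LEF1 ranked 2989, 3091 and 1397 there in the controls and 889, 389 and 972 after prednisolone. The groups did not overlap, but the score difference was 0.56, with a limma adjusted p of 0.379. TCF7L2 had a peak at this place in all 6 of its lists, at ranks from 6735 to 140287. The median summits of the LEF1 and TCF7L2 top peaks lay 1 bp apart. Single summits were spread more widely, over 385 bp for LEF1 and 618 bp for TCF7L2.

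Next to it, BMF region chr15:40360311-40363376 ranked 2038, 9881 and 7019 for LEF1 in the controls and 2310, 350 and 324 after prednisolone. Fold ratios reached 17.2 and 16.8 in prednisolone replicates 2 and 3, against 10.1, 5.76 and 5.97 in the controls and 9.85 in prednisolone replicate 1. The groups overlapped, and the score difference of 1.07 ± 0.403 had a limma adjusted p of 0.190. Another strong region, chr15:40372364-40376274, ranked between 1902 and 4581 in all 6 lists and was no higher in either group (score difference −0.13, limma adjusted p = 0.865).

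Inside BMF, at chr15:40394667-40395989 and 5.01 to 6.33 kb from the start, both antibodies had better ranks after prednisolone. LEF1 ranked 22351, 14882 and 81553 in the controls and 6775, 9194 and 6730 after prednisolone, with a score difference of 1.21 ± 0.418 and a limma adjusted p of 0.160. TCF7L2 had no peak in any control list and ranked 14261, 8068 and 69044 after prednisolone. In neither antibody did the groups overlap. The TCF7L2 difference, 1.41 over every region, had a limma adjusted p of 0.361. That TCF7L2 region was formed from prednisolone top peaks alone, so its test is not independent of that choice. The LEF1 region nearest to the start of the BMF span, chr15:40401362-40401739, was 0.362 to 0.739 kb upstream and had a top peak only in prednisolone replicate 3. BMF has a further promoter among those searched, which was not placed on hg19. Just inside the gene, at 0.611 to 2.34 kb, chr15:40398661-40400389 had a top LEF1 peak in 3 control and 2 prednisolone lists. Its score difference was −0.18 (limma adjusted p = 0.824).

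BBC3, which encodes PUMA, had a single region with either antibody, 3.99 to 4.54 kb upstream of its start (LEF1 chr19:47739986-47740537). LEF1 ranked 264600, 11972 and 63485 in the controls and 24416, 175224 and 100326 after prednisolone. TCF7L2 ranked 8685 in control replicate 1 and 6427 in prednisolone replicate 2, and the other 4 lists had no peak. Replicates differed more than groups did: the LEF1 score difference was −0.30, limma adjusted p = 0.847.

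BCL2, the guardian that gave the family its name, had 12 LEF1 regions, 5 of them with a top peak in all 6 lists. None was gained or lost. The best by median rank was the region that crosses the window's edge, chr18:60765156-60768462, at ranks 14091, 1143 and 1653 in the controls and 5766, 5396 and 3462 after prednisolone. At the start of BCL2 (chr18:60986151-60990862), LEF1 ranked 20337, 9560 and 5315 in the controls and 4470, 11430 and 9176 after prednisolone. The groups overlapped at both, with score differences of −0.17 and 0.25 (limma adjusted p = 0.873 and 0.772). The largest difference of a BCL2 region was a lower score at chr18:60863811-60865354, by −0.86 ± 0.392, with a limma adjusted p of 0.264.

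One TCF7L2 region was lost, inside BCL2 at chr18:60883549-60884146, 103 kb from the start. That is 1 of 46 TCF7L2 regions, where 1.24% of all were lost, and 0 were gained, where 0.36% were. TCF7L2 ranked 2737, 16308 and 4640 in the controls. After prednisolone it ranked 20830 in replicate 2, just past the limit of 20000, and replicates 1 and 3 had no peak. LEF1 peaks over the same place, 7700, 7053 and 4645 in the controls and 9652, 5692 and 6520 after prednisolone, overlapped between groups. The TCF7L2 score was lower by −1.52 over every region, with a limma adjusted p of 0.279.

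BCL2L1, which encodes BCL-XL, gained 1 LEF1 region, chr20:30281383-30283476, inside the gene and 27.5 to 29.6 kb from its start. LEF1 ranked 15658, 12263 and 12564 after prednisolone and 34990, 31488 and 218448 in the controls. Fold ratios were 5.46, 5.78 and 5.35 against 4.43, 4.36 and 1.81, again with no overlap. The score difference was 1.45 ± 0.473 (limma adjusted p = 0.142), and 0.894 without control replicate 3 (limma adjusted p = 0.290). Here too the order of the ranks, within both sets of libraries as well, follows from the rule for a gained region.

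TCF7L2 also ranked higher at the gained BCL2L1 region. Over chr20:30281937-30282939 it ranked 30683, 1228 and 1977 after prednisolone and 193577 in control replicate 3, while controls 1 and 2 had no peak. Prednisolone replicate 2 held the one TCF7L2 peak of the 6 loci that reached a −log10 q of 5, at 5.51. The score was higher by 2.09 over every region, limma adjusted p = 0.0386, and this was 1 of 46 TCF7L2 regions called higher where 0.147% of all were. The region was formed from prednisolone top peaks alone, in 2 lists, so the test is not independent of that choice. The call also rests on the full set of libraries: leaving out 1 library gave limma adjusted p from 0.0238 to 0.536, under 0.05 only without prednisolone replicate 1. With the set of libraries as a covariate it was 0.167. No TCF7L2 region of the loci was called lower, where 0.161% of all were.

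Another BCL2L1 region had lower LEF1 ranks after prednisolone. At chr20:30261973-30264035, 47.0 to 49.0 kb from the start, LEF1 ranked 8370, 8511 and 10428 in the controls and 19524, 13193 and 21575 after prednisolone. The groups did not overlap, and the score difference was −0.63, limma adjusted p = 0.327. The LEF1 region of BCL2L1 with the best median rank, chr20:30271649-30273876, overlapped between groups (ranks 12969, 17141 and 8680; then 10159, 6863 and 32277). At the gene's start no LEF1 region was found, and TCF7L2 had a top peak in control replicate 2 only, at rank 4193.

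MCL1, a guardian with a short-lived protein, had 2 LEF1 regions. Inside the gene, chr1:150550331-150551315 ranked 24294, 16264 and 35499 in the controls and 25428, 27682 and 124730 after prednisolone, which overlap (score difference −0.83, limma adjusted p = 0.449). Past the gene's end, chr1:150539805-150540305 ranked 40048, 18795 and 39498 after prednisolone, and the only control peak was at rank 214772 in replicate 1. No TCF7L2 list had a peak at that place. In the fit over every region its score was higher by 1.57 ± 0.358, limma adjusted p = 0.0432. The region was formed from 1 prednisolone top peak and no control one, so the test is not independent of that choice. The call was lost whichever of control 1, 2 or 3 or prednisolone 1 or 3 was left out, with limma adjusted p from 0.0528 to 0.146, and with the set of libraries as a covariate (0.0760). Without prednisolone 2, whose peak is the only top peak there, the region is not formed. Over the MCL1 start, TCF7L2 had a top peak in prednisolone replicate 1 only, at rank 4514, and ranked 20669 to 30542 in the controls. A TCF7L2 peak was present there in 5 lists, not in every list. That 1 top peak was no group difference: over every region the TCF7L2 score difference was −0.14, limma adjusted p = 0.871.

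Over all the LEF1 regions of the loci, the tests called few. Of the 32, 28 had a peak in all 6 full lists and entered the narrower fit. None was called higher, where 0.618% of all were, and none lower, where 0.194% were. Limma gave an unadjusted p under 0.05 for 4 of the 28 and for 6615 of all 33996, so the loci did not exceed the background, and the smallest adjusted p was 0.0961, at BCL2L11. The median score difference was −0.11 over the 28 and −0.03 over all 33996 regions. Over every region, limma called 2 of 32 higher, where 2.16% of all were, and 0 lower, where 0.962% were. The 2 are the BCL2L11 and MCL1 regions that entered through prednisolone peaks alone, and nothing is read from their count. Ranks of the groups did not overlap at 4 of the 28 regions with prednisolone higher, where 12.7% of all regions did so, and at 1 with prednisolone lower, where 12.8% did.

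**Figure D4:**
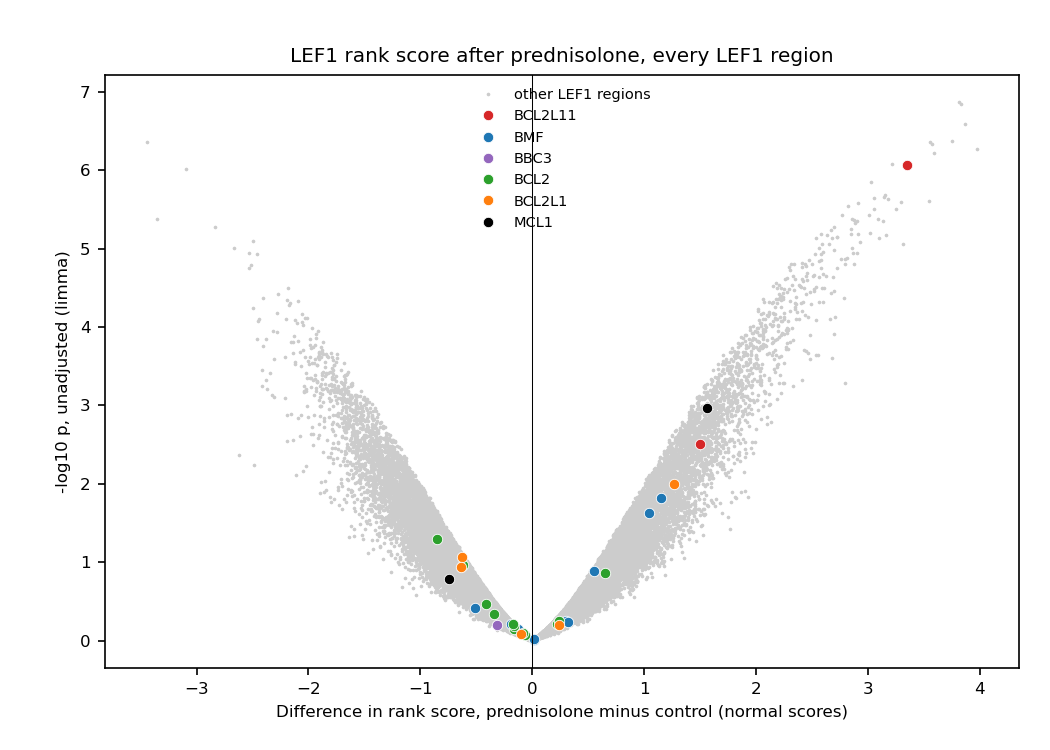
Difference in LEF1 rank score, prednisolone minus control (normal scores, horizontal axis), against the unadjusted −log10 p of limma (vertical axis) for all 36912 LEF1 regions in grey and the 32 regions of the 6 loci in colour. One BCL2L11 region lies at a difference of 3.35, far to the right of the other 31 regions, which stay between −0.85 and 1.57.

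For TCF7L2, 3 of the 46 regions, all at BMF, had a peak in all 6 full lists and entered the narrower fit. Limma called none of these 3 higher or lower, and none of all 7925 regions tested (0% in both directions). Their groups' ranks overlapped at all 3, where 9.64% of the 7925 were higher and 9.77% lower without overlap. At an unadjusted p under 0.05 limma had 1057 of the 7925 and 0 of the 3. The difference between the 2 antibodies' treatment effects was tested over the 7938 regions with a peak in all 12 lists, of which 4 lay at the loci. Limma called 0 of the 4, where 0.063% of all were more positive for TCF7L2 and 0% more negative. Over every region it called 0 of 53, where the shares were 0.0318% and 0.00847%, so no gene showed a treatment effect that differed between antibodies by this test.

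Peaks of both factors were compared at the same places. Of the 32 LEF1 regions, 29 had a TCF7L2 peak in some full list (90.6%, against 91.6% of all LEF1 regions). A top TCF7L2 peak in some list was found at 23 (71.9%, against 50.8% of all). The 32 regions were also wider, at a median of 1954 bp against 1365 bp over all LEF1 regions. Fewer of them had a top LEF1 peak in 1 list only (21.9% against 30.3%). The part of either in the overlap was not tested. At 3 of the 32 the TCF7L2 ranks were higher after prednisolone with no overlap, where 4.51% of all LEF1 regions were, and at 0 they were lower, where 4.64% were. Those 3 were the BCL2L11 region 36.1 kb from the start, the BMF region 5.01 kb from the start and the gained BCL2L1 region. The BCL2L11 and BCL2L1 regions among them are gained LEF1 regions. Of all 1040 gained LEF1 regions, 23.1% had higher TCF7L2 ranks after prednisolone with no overlap, and 1.44% had lower ones. For such regions this share, not 4.51%, is the background. Where both had top peaks, the gap between the 2 antibodies' median summits was taken, in which offsets to opposite sides can cancel. The median of this gap was 135.5 bp over 23 regions, against 106 bp over 18684 regions in all. No region of the 53 merged over both antibodies had top peaks of all 6 lists of one antibody and none of the other, where 1.56% of all were LEF1-only and 0.632% TCF7L2-only. Nor had any a top peak in all 12 lists, where 0.713% of all did. A top LEF1 peak in all 6 LEF1 lists was found at 8 of 32 regions, 5 at BCL2 and 3 at BMF (20.5% of all LEF1 regions had one). For TCF7L2 no region of the loci reached that, where 2.20% of all TCF7L2 regions did.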

How the data were processed

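CUT&RUN peak lists of 12 libraries were used, 3 for each antibody and treatment. The lists are in hg19 and were called per sample with MACS2, per the submitters' processing notes. The MACS2 version, the aligner and the control library are not given in the sources used here. The deposited columns are an integer score, a fold ratio over modelled background, and −log10 p- and −log10 q-values, all by the authors. They were used only to rank, filter or describe peaks within a list. The weakest peak of every deposited list had a −log10 p-value of 1.30, a p-value of 0.05.

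Peaks overlapping by at least 1 bp were merged into regions, from the 20000 top peaks of each list by −log10 p. Peaks equal at the limit were taken by position, which filled up to 472 places in a LEF1 list and up to 7599 in a TCF7L2 list. Within-library ranks were converted to normal scores and compared with limma 3.58.1 in R 4.3.3, adjusted over all regions. In the fit with every region, those beyond the 35770 (LEF1) or 30206 (TCF7L2) best-ranked of each list shared the lowest rank. The code was tested on simulated data, made for the LEF1 fit over 33996 regions with a common SD of 0.584. Limma at an adjusted p under 0.05 recovered 2% of 100 shifts of 1 score unit and 31% of 100 shifts of 2. It made 0 false calls. Most shifts of these sizes were thus missed, so an uncalled region is not shown to be unchanged. No 2 lists shared over 0.0737% of their intervals.

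Gene spans are rounded to 1 kb, and a gene's start here means the rounded edge of its span. Distances from a start are no more exact than that. No hg19 sequence or annotation was used here, so exons and introns were not assigned and other genes of the family were not examined. The regions named are, in each gene, the best by median rank, those called, and that nearest the start, and others named were chosen after their values were seen. The 6 genes and the lists were chosen with earlier results of these data known.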

Additional observations from a re-analysis of the deposited data

How the results depend on the processing

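Counts of gained LEF1 regions ran from 2 to 4 over all alternatives, against 3. Other counts at the loci that moved by over 1.5 times are these. With the full lists, 1 LEF1 region was lost, 1 TCF7L2 region was gained and 3 were lost, 3 regions were LEF1-only and 5 had both antibodies in all 12 lists. The lost TCF7L2 region at BCL2 fell to 0 with 10000 top peaks, under a −log10 q limit of 5 and with peaks ordered by fold. LEF1-only regions then numbered 1, 13 and 1. Leaving out 1 library gave 0 to 1 lost LEF1 regions, 0 to 2 gained and 1 to 2 lost TCF7L2 regions, 0 to 2 LEF1-only regions, and 0 to 1 LEF1 regions ranked higher. LEF1 regions ranked higher numbered 1 on the log2 rank scale and 2 over every region, and TCF7L2 regions 1 over every region. Density ratios that moved by more than their SD over the 6 full lists follow. The full lists gave 1.91 at MCL1 for LEF1, and for TCF7L2 1.79 (BCL2L11), 2.29 (BMF), 0.764 (BBC3), 1.82 (BCL2), 1.77 (BCL2L1) and 1.61 (MCL1). Among top peaks, the ratios were 14.9 (BMF), 0.416 (BBC3), 6.29 (BCL2), 4.02 (BCL2L1) and 0.938 (MCL1) for LEF1, and 3.42 (BCL2L11), 5.09 (BMF), 2.52 (BCL2) and 2.60 (BCL2L1) for TCF7L2. Under the −log10 q limit they were 14.2 (BMF), 0.638 (BBC3), 5.38 (BCL2) and 3.48 (BCL2L1) for LEF1, and 3.47 at BCL2L1 and 0 at the other 5 genes for TCF7L2. The cause was not tested. Every other count kept within 1.5 times, and every other ratio within its SD.

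Same-numbered deviations of control and prednisolone libraries correlated from −0.123 to −0.0313. Every such pair crossed the 2 sets by shortest peak, so these values cannot decide whether replicate numbers pair the libraries. Different-numbered deviations correlated from 0.0252 to 0.0890 within a set and from −0.0336 to 0.00565 across sets. With the replicate number as a block, 0 regions of the loci were called in any of the narrower fits, as without it. Over every region, limma adjusted p with the block was 0.0215 at the BCL2L11 region, 0.0941 at the MCL1 region and 0.0516 for TCF7L2 at BCL2L1. The fits over every region with a block, a covariate, a log2 rank or a library left out were added after the data had been seen. On the log2 rank scale, the MCL1 region had a limma adjusted p of 0.476, the LEF1 region at BCL2L11 had 0.000376, and TCF7L2 at BCL2L1 had a score difference of 3.92 with 0.000927.

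Peak lists carry no signal where no peak was called, so a missing peak is not a measured 0. TCF7L2 peaks at the loci are weak, and with read totals not used here no interval for depth was given.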
